A study of Mus musculus with 9 samples.

Results

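The fibroblast growth factor (FGF) genes examined here were 8 ligands (Fgf3, Fgf4, Fgf5, Fgf7, Fgf8, Fgf10, Fgf15 and Fgf17) and 2 receptors (Fgfr1 and Fgfr2), that is 10 of the 19938 mouse genes with a symbol of their own on the arrays. They were found by gene symbol, and each had 1 probe set among the 28853 of the array. RNA of 3 mouse lines was hybridised to 9 Affymetrix Gene 1.0 ST arrays, 3 per line. The P19 cells are an embryonal carcinoma line, that is stem cells of a teratocarcinoma. P19 NTES7 is the line that the labels name as pluripotent stem cells derived from P19, and the methods describe it as an ES-like line from blastocysts cloned with P19 nuclei. R1 is an embryonic stem (ES) cell line. The labels give no genetic change or drug for any group and no age. All of the lines were grown in the same ES medium with serum and leukemia inhibitory factor (LIF), and P19 NTES7 stands for 1 cloned line only. The methods name mitotically blocked mouse embryo fibroblasts as the feeder layer of the stem cell lines. They describe the ES cells collected for RNA as feeder free. According to the labels the 3 arrays per line are biological repeats, without word of separate cultures, so p-values reflect only how far such arrays vary, which may be technical.

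FGF ligands are secreted proteins that bind receptor tyrosine kinases on the cell surface together with heparan sulfate, and the main signal inside the cell runs through RAS to the ERK kinases. Mouse ES cells make Fgf4 themselves, and the ERK signal it raises makes them ready to leave the naive state, whereas LIF holds them in it. Around implantation Fgf5 marks the epiblast, and Fgf8, Fgf17 and Fgf3 are made in and near the primitive streak at gastrulation. Fgf7 and Fgf10 are instead made by mesenchyme and fibroblasts, and act on the epithelial form of Fgfr2.

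Values are RMA intensities on a linear scale, where the medians of the 9 arrays lay between 16.5 and 17.5. A gene was called different between lines where its Benjamini-Hochberg adjusted p from limma, taken over all probe sets, was under 0.01 and its fold was over 2, and "higher" and "lower" without further words are used for such calls only. No detection calls come with these values, so an intensity under the array median was read neither as expressed nor as absent, and a fold over a line at such a level is not exact. Levels of different genes were not compared, because each comes from a probe set of its own. The arrays hold whole cultures, in which fewer cells of a type and less RNA per cell cannot be told apart. Of 8 pluripotency markers, 7 to 8 lay above the array median in every line, and Pou5f1, which encodes OCT4, had a mean of 2196 in P19, 1471 in the cloned line and 1470 in R1. Other markers of this list differed between lines: in P19, P19 NTES7 and R1, in that order, the naive marker Zfp42 (REX1) had means of 19.7, 41.7 and 289 and was called in each comparison, Dppa4 had 57.9, 99.1 and 221 and was higher in R1 than in both other lines, and the chromatin factor Utf1 had 471, 73.5 and 584 and was lower in P19 NTES7 than in both. Markers of fibroblasts, the feeder cells, were present as well: the summed intensity of 24 of them was 2597 to 2983 in R1, 1558 to 1870 in P19 NTES7 and 423 to 458 in P19, and 22, 20 to 22 and 8 to 9 of them lay above the array median. Their part in the differences below was not tested.

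Most calls among the FGF ligands had R1 as the higher line. Set against P19, R1 was higher in 4 of the 10 genes (Fgf4, Fgf5, Fgf7 and Fgf17) and lower in 0, where 7.40% of all probe sets were called and 3.70% were called higher. The cloned line P19 NTES7 did not simply lie between its parent and the ES line. Against P19 it was higher in 3 genes (Fgf5, Fgf8 and Fgf10) and lower in 1 (Fgf15), with 2.91% of all probe sets called, 1.55% higher and 1.36% lower. Against R1 it was higher in 1 gene (Fgf8) and lower in 4 (Fgf4, Fgf7, Fgf15 and Fgf17), with 4.52% of all probe sets called, 1.99% higher and 2.53% lower. Neither receptor was called in any comparison. The comparisons share lines, so their counts are not independent of each other. The 10 genes were chosen with earlier results of these data known. Counts of them, here and below, are therefore no test of FGF genes against other genes.

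**Figure D1:**
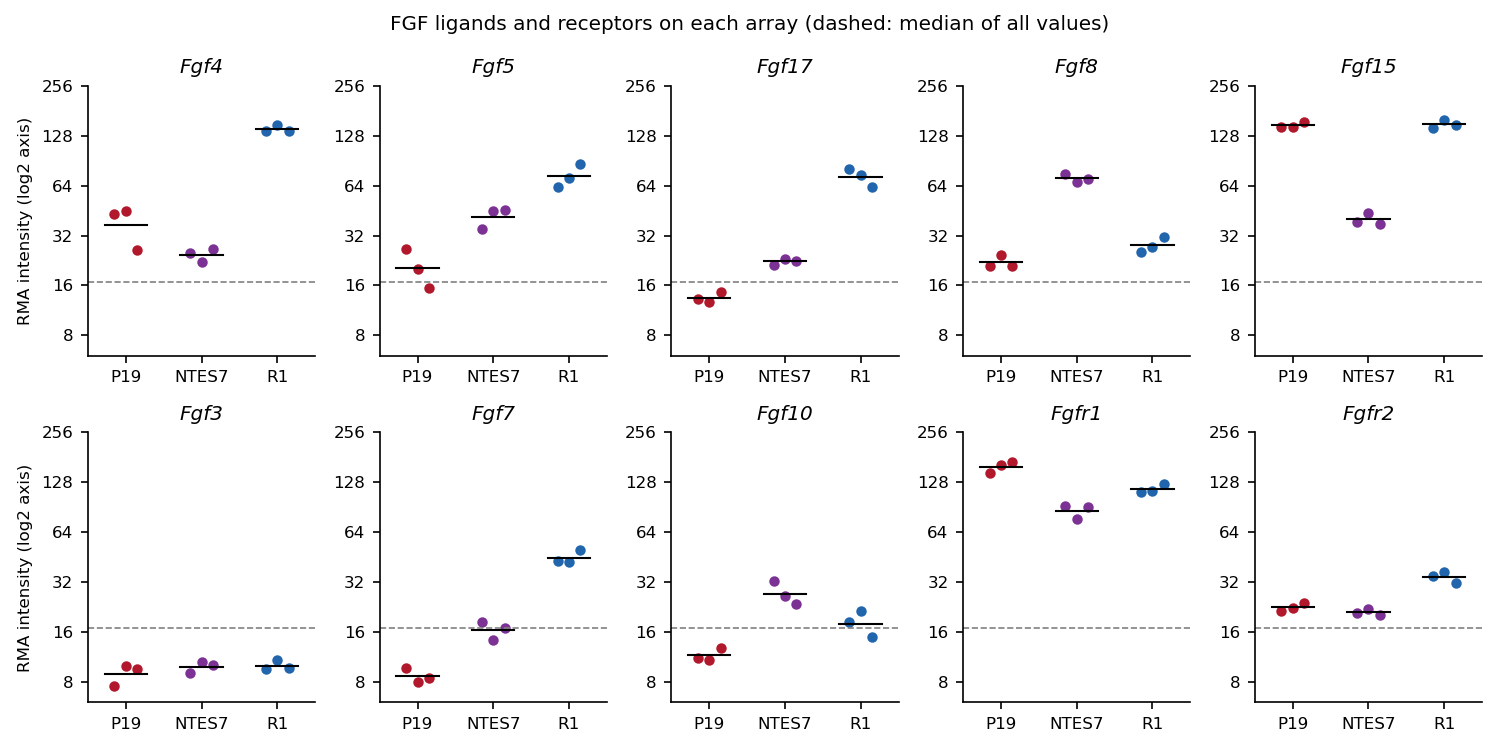
RMA intensity (log2 axis) of the 10 genes on each of the 9 arrays. Each point is 1 array, black lines are means of the log2 values, and the dashed line is the median of all values (16.9). Fgf4, Fgf17 and Fgf7 stand apart in R1, Fgf8 and Fgf10 are at their top in P19 NTES7, and Fgf15 is at its bottom there.

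RefSeq promoters of GRCm38.p6 were on hand for 6 of the 10 genes, and those of 2 epiblast and 2 mesenchymal ligands are shown to set these groups side by side. Each run is the 250 bases before the gene's start, 5′ to 3′ on the strand of the gene, and capitals mark matches, on either strand, to the TATA box TATAAA or its variant TATATA, the GC box GGGCGG, the motif CCAAT, the octamer ATGCAAAT or the AP-1 site TGACTCA.
Fgf4, chr7:144861136-144861385, + strand: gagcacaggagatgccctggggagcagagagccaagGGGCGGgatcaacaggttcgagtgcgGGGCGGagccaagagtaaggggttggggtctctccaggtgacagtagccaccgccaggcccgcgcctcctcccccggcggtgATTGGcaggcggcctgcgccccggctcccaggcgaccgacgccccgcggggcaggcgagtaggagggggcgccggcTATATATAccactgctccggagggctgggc
Fgf5, chr5:98253934-98254183, + strand: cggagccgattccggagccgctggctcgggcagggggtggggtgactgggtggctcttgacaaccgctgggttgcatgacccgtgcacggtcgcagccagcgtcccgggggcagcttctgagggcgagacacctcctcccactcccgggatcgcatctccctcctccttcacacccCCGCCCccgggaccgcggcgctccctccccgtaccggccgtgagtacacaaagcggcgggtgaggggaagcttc
Fgf7, chr2:126034408-126034657, + strand: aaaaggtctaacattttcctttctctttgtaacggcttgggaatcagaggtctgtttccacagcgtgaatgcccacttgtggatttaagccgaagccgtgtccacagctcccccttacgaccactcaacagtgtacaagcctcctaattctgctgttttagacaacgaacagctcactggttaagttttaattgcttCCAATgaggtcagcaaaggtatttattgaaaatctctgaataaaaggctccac
Fgf10, chr13:118714449-118714698, + strand: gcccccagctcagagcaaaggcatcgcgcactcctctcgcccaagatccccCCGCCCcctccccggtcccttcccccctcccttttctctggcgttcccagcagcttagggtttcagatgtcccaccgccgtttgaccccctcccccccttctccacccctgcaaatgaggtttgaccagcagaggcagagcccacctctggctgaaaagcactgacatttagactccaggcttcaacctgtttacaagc
The Fgf4 promoter holds TATATA at 30 and, overlapping it, at 28 bases before the start, GGGCGG at 214 and 188 bases, and CCAAT on the other strand at 106 bases. Fgf5 and Fgf10 each have 1 GGGCGG on the other strand, 74 and 199 bases before the start, and Fgf7 has 1 CCAAT at 53 bases. Neither the octamer nor the AP-1 site was found in these 4 windows. Of 32851 promoters of this length, 5.25% hold TATATA, 12.4% TATAAA, 32.7% GGGCGG, 33.9% CCAAT, 1.60% the octamer and 4.46% the AP-1 site. The windows hold 21 CpG sites for Fgf4, 24 for Fgf5, 6 for Fgf7 and 8 for Fgf10, with a median of 6 over all promoters. Among the entries not printed, Fgf3, also a gastrulation ligand, has 4 and Fgfr2 has 2. These matches describe the letters only, and the arrays did not measure binding.

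Fgf4, the ligand through which ES cells stimulate themselves, separated R1 from both other lines. Its intensity was 138, 148 and 137 on the R1 arrays, 43.1, 44.9 and 26.3 on the P19 arrays, and 25.0, 22.2 and 26.6 on the P19 NTES7 arrays. All R1 arrays were far above the rest, and P19 array 3 fell within the range of P19 NTES7. R1 was 3.80-fold higher than P19 (log2 difference 1.93 ± 0.17 (SE), adjusted p = 9.46e-07). P19 NTES7 was 5.74-fold lower than R1 (log2 difference -2.52 ± 0.17, adjusted p = 1.33e-07). The cloned line was thus not closer to ES cells than P19 in this gene: its mean log2 value lay 0.60 under that of P19, a difference that was not called (95% interval -0.96 to -0.23, adjusted p = 0.024). Without P19 array 3 that difference was -0.84 with an adjusted p of 0.000278, still within 2-fold, and the one between R1 and P19 was 1.68.

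Fgf5, the epiblast ligand, was higher in both stem cell lines than in the carcinoma line. It was measured at 26.6, 20.2 and 15.5 in P19, at 35.0, 45.1 and 45.8 in P19 NTES7, and at 62.8, 71.5 and 86.0 in R1. The ranges of the 3 lines did not overlap. R1 was 3.59-fold higher than P19 (log2 difference 1.84 ± 0.18, adjusted p = 2.85e-06). P19 NTES7 was 2.05-fold higher than P19 (1.04 ± 0.18, adjusted p = 0.00111), a call close to the fold limit that was lost without P19 array 3 (0.85), without P19 NTES7 array 2 (0.98) or array 3 (0.97), with arrays centred on their medians (0.99), and with 16 added to each value (0.66). The step from P19 NTES7 to R1 passed the p limit but not the fold limit (log2 difference of P19 NTES7 minus R1 -0.81 ± 0.18, adjusted p = 0.0045).

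Fgf17 and Fgf8, close relatives that are both made around gastrulation, parted between the ES line and the cloned line. Fgf17 stood at 80.4, 74.6 and 63.0 in R1, at 21.4, 23.1 and 22.5 in P19 NTES7, and at 13.2, 12.7 and 14.6 in P19, where every array was under its own median. R1 was 5.36-fold higher than P19 (log2 difference 2.42 ± 0.11, adjusted p = 1.49e-09) and P19 NTES7 3.24-fold lower than R1 (-1.70 ± 0.11, adjusted p = 8.71e-08). P19 NTES7 and P19 did not overlap, but their fold of 1.65 was under the limit (log2 difference 0.73 ± 0.11, adjusted p = 0.000348).

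Fgf8, which gastrulating cells need to leave the streak, was the only one of the 8 ligands with a call for P19 NTES7 over both other lines, and with 16 added to each value the call over R1 was lost (0.99). Its values were 75.4, 67.6 and 70.6 in P19 NTES7, 25.6, 27.1 and 31.5 in R1, and 21.0, 24.4 and 20.8 in P19. Every array of the cloned line was above every other array. P19 NTES7 was 3.23-fold higher than P19 (log2 difference 1.69 ± 0.11, adjusted p = 1.85e-07) and 2.54-fold higher than R1 (1.35 ± 0.11, adjusted p = 9.05e-07). R1 and P19 differed by 0.34 on the log2 scale, which was not called (95% interval 0.11 to 0.58, adjusted p = 0.027). On each array Fgf17 was set against Fgf8, a pair chosen after the values were seen: the log2 ratio was 1.0 to 1.65 in R1, -0.94 to -0.51 in P19 and -1.82 to -1.55 in P19 NTES7, with no overlap between lines. As the pair was picked from these values, the ratio describes them and tests nothing.

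Markers of the primitive streak and mesoderm were read beside Fgf8. T (brachyury), also on this list, had no probe set with a symbol of its own. Of 13 measured, 1 to 2 lay above the array median in P19 and 4 to 5 in each other line. Of these 13, P19 NTES7 was higher than P19 in 4 and lower in 0, beside 1.55% and 1.36% of all probe sets. R1 was higher than P19 in 3 and lower in 0, beside 3.70% of all probe sets in each direction. Between the cloned line and R1, 0 were called, beside 4.52% of all probe sets. The median log2 difference of the 13 markers from P19 was 0.39 in P19 NTES7 and 0.38 in R1, against 0.02 for all genes in both. Eomes, a T-box factor of the early streak, had an intensity of 146 ± 12.4 in P19 NTES7, 79.2 ± 8.38 in R1 and 27.2 ± 6.16 in P19 (mean and SD of 3 arrays, as for the levels that follow). Lhx1, a homeobox factor, was at 35.1 ± 5.13, 22.7 ± 4.46 and 8.75 ± 0.315, and the Wnt ligand Wnt3 at 20.1 ± 2.20, 15.1 ± 1.93 and 9.10 ± 0.665, in that order of lines, both with P19 NTES7 higher than P19. Mixl1 had its top in R1 instead, at 50.2 ± 5.43 against 32.0 ± 5.88 in P19 NTES7 and 12.9 ± 1.29 in P19. The summed intensity of the list was 329 to 360 in P19 NTES7, 281 to 284 in R1 and 146 to 159 in P19. Eomes was the largest single part of this sum in each line. The mean log2 value of the 13 markers, which gives each gene the same weight, overlapped between P19 NTES7 (4.07 to 4.13) and R1 (4.01 to 4.13). P19 NTES7 and R1 were thus separate by the sum of the list, but not by this mean. Of the 13 markers, 5 had arrays that did not overlap between these lines, beside 36.6% of all probe sets. Eomes, Lhx1 and Wnt3 were among them with P19 NTES7 above, and Mixl1 with R1 above. The part of these markers in the Fgf8 difference was not tested.

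Markers of epiblast, endoderm and neural cells were compared as well. Beside their counts stand 7.40% of all probe sets called in R1 against P19, 2.91% in P19 NTES7 against P19 and 4.52% in P19 NTES7 against R1. Of 9 primed epiblast markers, the stage that Fgf5 marks, 1 was higher and 1 lower than P19 in each of P19 NTES7 and R1, and 0 were called between the cloned line and R1. Their median log2 difference from P19 was -0.47 in P19 NTES7 and 0.04 in R1, against 0.02 for all genes in both. In P19 NTES7 all 9 stood clear of P19, most of them under it, beside 34.4% of all probe sets. Lefty2, a Nodal inhibitor, was higher than P19 in both, at 123 ± 13.2 in P19 NTES7, 98.9 ± 32.4 in R1 and 12.0 ± 1.21 in P19. Otx2, a homeobox factor, was lower in R1 (102 ± 10.2) than in P19 (214 ± 45.0), and Foxd3, a forkhead factor, 2.18-fold lower in P19 NTES7 than in P19. Among 10 endoderm markers the only call was Gata6, 2.04-fold higher in P19 NTES7 than in P19. Among 7 neural markers 2 were higher and 1 lower in R1 than in P19, 0 were called between P19 NTES7 and P19, and the cloned line was above R1 in 1 called marker and below it in 3. Neurod1 (51.7 ± 9.44) and Pax6 (26.4 ± 3.63), transcription factors, had their top in R1, against 13.2 ± 1.58 and 10.2 ± 1.47 in P19. Nes, which encodes nestin, was lower in R1 than in both others, and Map2, a microtubule protein, was 2.00-fold lower in P19 NTES7 than in R1, at the fold limit.

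Fgf15, the mouse counterpart of human FGF19 and a hormone of bile acid control in the adult gut, went the other way from Fgf8. P19 (145, 145 and 156) and R1 (142, 161 and 149) overlapped, and the cloned line (38.8, 44.1 and 37.7) lay far under both. P19 NTES7 was 3.70-fold lower than P19 (log2 difference -1.89 ± 0.10, adjusted p = 3.09e-08) and 3.75-fold lower than R1 (-1.91 ± 0.10, adjusted p = 1.21e-08). Between R1 and P19 the log2 difference was 0.02, with a 95% interval from -0.19 to 0.23 that lies inside 2-fold.

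Fgf3 was dim on every array, and whether it was expressed cannot be told from these values. Its 9 values ran from 7.56 in P19 to 10.8 in R1, all under the median of their array, the lines overlapped, and no log2 difference was over 0.17 in size (adjusted p = 0.333 to 0.946).

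**Figure D2:**
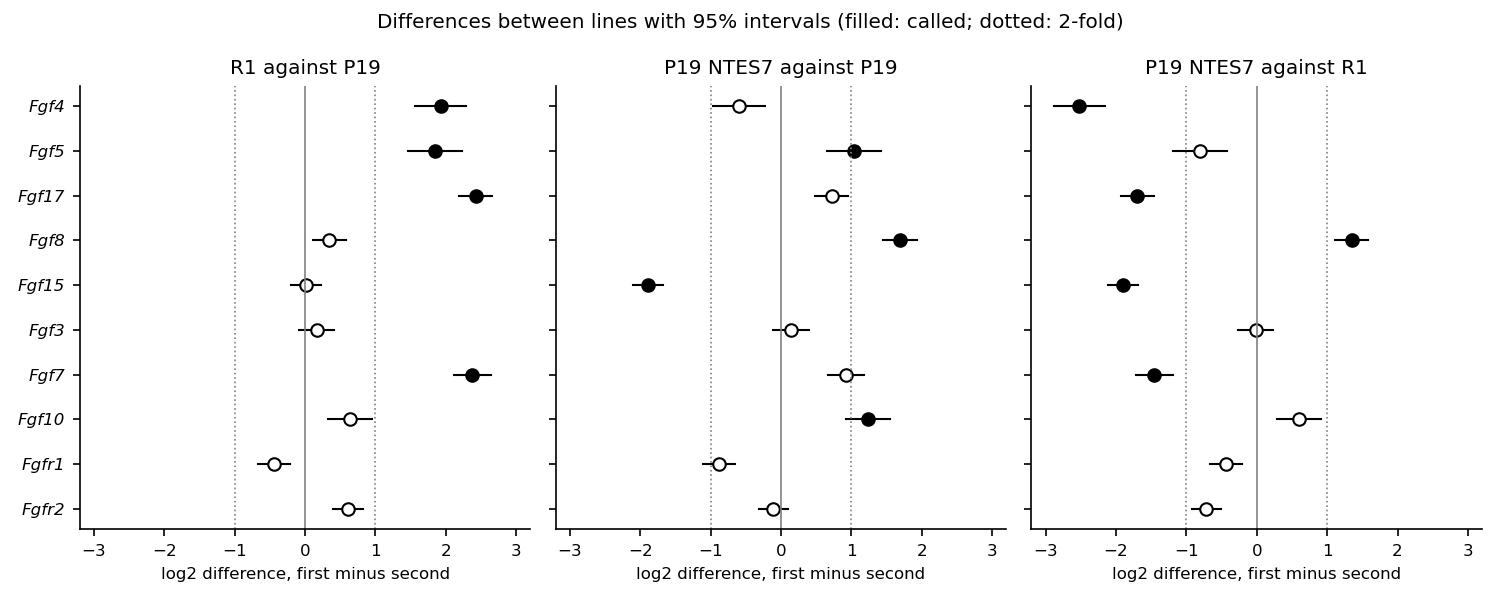
Log2 difference (first line minus second) of the 10 genes in each comparison, with 95% intervals from limma. Filled points are called, and dotted lines mark 2-fold. The cloned line differs from P19 upward in Fgf5, Fgf8 and Fgf10 and downward in Fgf15.

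Fgf3, Fgf4 and Fgf15 are neighbours on chromosome 7, and their calls were the same in some comparisons and not in others. On the annotation their order is Ano1, Fgf3, Fgf4, Fgf15, Lto1 and Ccnd1, counting protein-coding genes within the windows examined. Relative to P19, Fgf4 was the only one of the 3 with a call in R1, and Fgf15 the only one with a call in P19 NTES7. In P19 NTES7 against R1, by contrast, Fgf4 (-2.52) and Fgf15 (-1.91) were lower together. Fgf3, under the array median in every line, was not called, and at such a level a fall might not be seen. On each array the log2 ratio of Fgf4 over Fgf15, chosen after the values were seen, was -0.12 to -0.04 in R1, -0.99 to -0.50 in P19 NTES7 and -2.57 to -1.69 in P19, with no overlap. This ratio too only describes the values it was picked from. Ano1, which encodes a chloride channel, and Lto1 had no call in any comparison, and their log2 differences were at most 0.18 in size. Ccnd1, which encodes cyclin D1 and is also on the list of ERK feedback and target genes below, was at 602, 593 and 577 in R1, 174, 158 and 175 in P19 NTES7, and 251, 231 and 195 in P19. It was higher in R1 than in P19 (log2 difference 1.40 ± 0.11, adjusted p = 2.48e-07), as Fgf4 was, and lower in P19 NTES7 than in R1 (-1.81 ± 0.11, adjusted p = 3.93e-08). A noncoding gene, Gm26793, overlaps Fgf15 on the annotation and has no probe set of its own under that name.

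**Figure D3:**
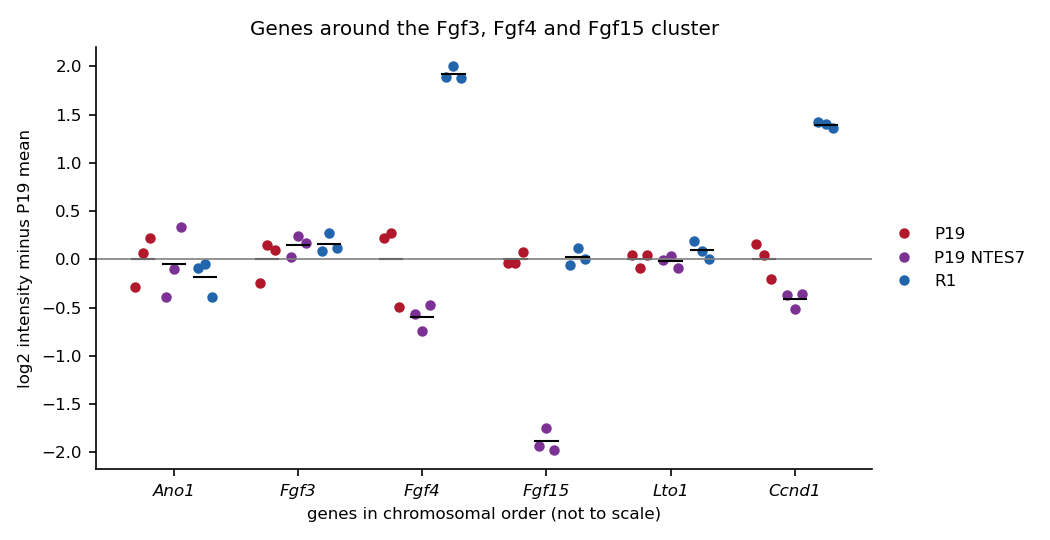
Log2 intensity minus the P19 mean for the genes with a probe set around Fgf3, Fgf4 and Fgf15, in chromosomal order (spacing not to scale). Each point is 1 array and each black line a mean. Fgf4 and Ccnd1 stand high in R1, Fgf15 stands low in P19 NTES7, and the other genes stay near 0.

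The mesenchymal ligands Fgf7 and Fgf10 were under the array median on every P19 array and had different peaks. Fgf7, keratinocyte growth factor, had intensities of 42.8, 42.4 and 49.7 in R1, 18.3, 14.2 and 16.8 in P19 NTES7, and 9.65, 7.95 and 8.39 in P19. The lines were fully separate, in that order. R1 was 5.20-fold higher than P19 (log2 difference 2.38 ± 0.12, adjusted p = 4.96e-09), and P19 NTES7 was 2.74-fold lower than R1 (-1.45 ± 0.12, adjusted p = 1.08e-06). In P19 NTES7 only 1 array had Fgf7 above its median, and with 16 added to each value the call against R1 was lost (-0.91). P19 NTES7 over P19, at 1.90-fold, was just under the limit (log2 difference 0.92 ± 0.12, adjusted p = 0.000105) and passed it without P19 array 1 (1.0) or P19 NTES7 array 2 (1.02).

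Fgf10, the ligand of limb and lung bud mesenchyme, was at 32.3, 26.5 and 23.6 in P19 NTES7, 18.3, 21.3 and 14.8 in R1, and 11.2, 10.8 and 12.8 in P19. Again no lines overlapped, but here the cloned line was on top. P19 NTES7 was 2.35-fold higher than P19 (log2 difference 1.24 ± 0.15, adjusted p = 4.63e-05). Its 1.52-fold distance from R1 (0.60 ± 0.15, adjusted p = 0.00741) and that of R1 from P19 (0.63 ± 0.15, adjusted p = 0.00397) were under the fold limit. With 16 added to each value before the log, which understates differences of dim genes, the Fgf10 call was lost (0.65).

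Most fibroblast markers stood in the same order of lines as Fgf7, R1 over P19 NTES7 over P19, by their mean log2 values. The order is not particular to Fgf7: Fgf5, Fgf17 and, with overlapping arrays, Fgf3 had it too, as did the pluripotency markers Zfp42 and Dppa4. The share of all genes with this order was not counted. Of the 24 markers, 20 had this order, Acta2, Pdgfra and Tagln had that of Fgf10 and Fgf8, and Mmp2 had P19 NTES7 lowest. Acta2, smooth muscle actin, was at 200 ± 26.0 in P19 NTES7, 169 ± 19.5 in R1 and 43.1 ± 3.47 in P19. Between P19 NTES7 and R1, Acta2 (log2 difference 0.25), Pdgfra (0.02), Tagln (0.04) and Fgf10 (0.60) were all not called. The arrays of these markers overlapped, and those of Fgf10 did not. Among the 24 markers, R1 was higher than P19 in 19 and P19 NTES7 higher than P19 in 15, with 0 lower in either, and P19 NTES7 was lower than R1 in 5 and higher in 0. None was listed at 0. Decorin (Dcn), a proteoglycan of fibroblast matrix, reached 232 ± 70.5 in R1 and 80.6 ± 7.23 in the cloned line, but 8.45 ± 0.245 in P19. Tenascin C (Tnc) was at 441 ± 42.1, 205 ± 14.0 and 8.73 ± 1.02, the metalloproteinase Mmp3 at 293 ± 23.2, 54.8 ± 2.83 and 7.41 ± 0.733, and thrombospondin 2 (Thbs2) at 166 ± 49.4, 97.6 ± 15.1 and 12.4 ± 1.24, in the same order. Fgf10 was above its R1 values on every P19 NTES7 array, where the marker sum was lower. The log2 ratio of Fgf7 over Fgf10, a pair set by the choice of genes, was 0.99 to 1.75 in R1, -0.89 to -0.48 in P19 NTES7 and -0.61 to -0.21 in P19. The ratio differed between R1 and P19 NTES7 without overlap (difference of P19 NTES7 minus R1 -2.06). That follows from the values above, as every P19 NTES7 array was below R1 in Fgf7 and above it in Fgf10. P19 and P19 NTES7 overlapped (-0.31, exact two-sided permutation p = 0.2, where 0.1 is the smallest possible). The part of fibroblast RNA in either ligand was not tested.

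**Figure D4:**
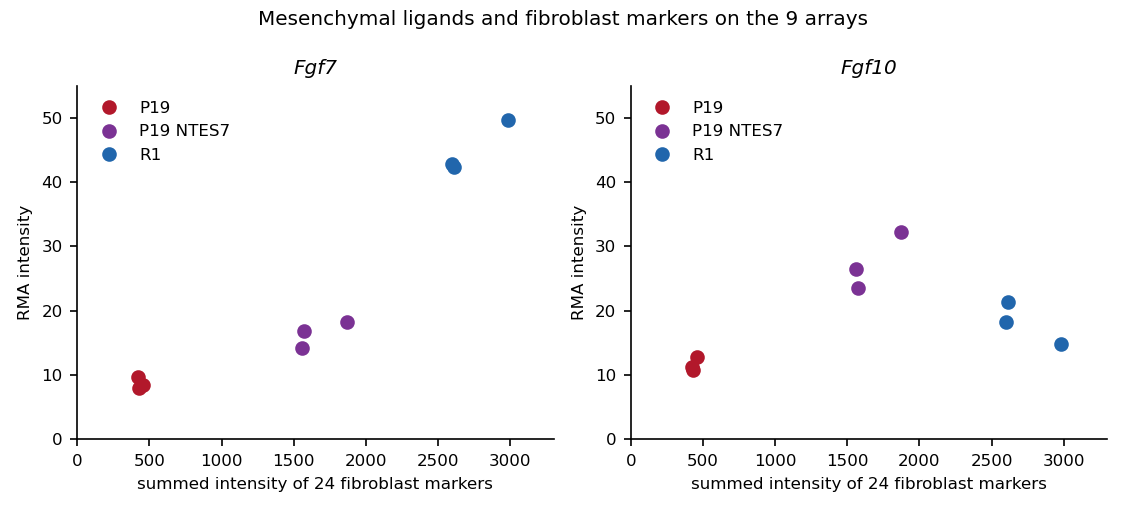
RMA intensity of Fgf7 and of Fgf10 against the summed intensity of 24 fibroblast markers, 1 point for each of the 9 arrays. Fgf7 is at its top (42.4 to 49.7) in R1, where the sum is 2597 or more, and Fgf10 (23.6 to 32.3) in P19 NTES7, where it is 1558 to 1870.

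Neither receptor passed the fold limit in any comparison. Fgfr1, the main FGF receptor of ES cells, was at 146, 163 and 171 in P19, 113, 114 and 125 in R1, and 92.7, 77.3 and 90.4 in P19 NTES7. The lines did not overlap and P19 was on top. P19 NTES7 was 1.84-fold under P19 (log2 difference -0.88 ± 0.11, adjusted p = 5.5e-05) and R1 1.36-fold (-0.45 ± 0.11, adjusted p = 0.00501), neither past the fold limit. P19 NTES7 minus R1 was -0.44 ± 0.11 (adjusted p = 0.00772).

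Fgfr2, the receptor whose epithelial form binds Fgf7 and Fgf10, was at 35.0, 37.0 and 31.4 in R1, apart from P19 (21.5, 22.4 and 23.9) and P19 NTES7 (20.9, 21.9 and 20.1), which overlapped. R1 exceeded P19 by 0.61 ± 0.10 on the log2 scale (adjusted p = 0.000256), and P19 NTES7 minus R1 was -0.71 ± 0.10 (adjusted p = 9.79e-05), both under 2-fold. Between P19 NTES7 and P19 the difference was -0.11, with a 95% interval of -0.32 to 0.10. A single probe set for the gene cannot separate the epithelial from the mesenchymal splice form.

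Counted over all 10 genes, R1 stood clear of P19 on every array in 8, P19 NTES7 clear of P19 in 7, and P19 NTES7 clear of R1 in 9, against 45.3%, 34.4% and 36.6% of all probe sets. For the 4 genes called between R1 and P19, the mean log2 value of P19 NTES7 was placed on a scale from 0 (P19) to 1 (R1). It lay at 0.56 for Fgf5, 0.39 for Fgf7 and 0.30 for Fgf17, but at -0.31, outside the interval, for Fgf4.

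Of the other genes of the pathway, 73 of 80 listed had a probe set. Against P19, R1 was higher in 12 and lower in 2, and P19 NTES7 was higher in 4 and lower in 2. Against R1, P19 NTES7 was higher in 1 and lower in 10. As a share of those measured, 19.2%, 8.22% and 15.1% were called in either direction in R1 against P19, P19 NTES7 against P19 and P19 NTES7 against R1, beside 7.40%, 2.91% and 4.52% of all probe sets. The pathway lists, here and below, were also chosen with earlier results known, so such shares describe the lists and test nothing. None of the 14 other ligands was called in any comparison at these limits. Fgf18 came nearest, at 38.6 ± 1.53 in R1, 26.8 ± 1.73 in the cloned line and 19.6 ± 2.52 in P19, a 1.98-fold difference between R1 and P19. Fgfr3 and Fgfr4 were under the array median on every array. Among coreceptors, Flrt2, a membrane protein that binds FGF receptors, had the order of Fgf7 and Fgf17, at 31.1 ± 4.58, 14.1 ± 0.586 and 8.22 ± 1.03, and was higher in R1 than in both other lines.

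Heparan sulfate genes, which shape the ligand's docking on the receptor, had 3 calls up and 1 down in R1 against P19 among 18 measured, which is 22.2% beside 7.40% of all probe sets. Sulf2, a sulfatase that trims the sulfate groups, was at 186 ± 6.72 in R1, 53.3 ± 1.05 in P19 and 29.2 ± 4.35 in P19 NTES7, an order like that of Fgf4. Ext1, a polymerase of the chain, was 3.04-fold higher in R1 than in P19, while P19 NTES7 minus P19 was -0.03 on the log2 scale (95% interval -0.23 to 0.17). Sdc4, the carrier protein syndecan 4, was 2.02-fold higher in R1 than in P19. Gpc3, the carrier glypican 3, was 4.13-fold lower in R1 than in P19 and 4.25-fold higher in P19 NTES7 than in R1. Of 14 relay genes between receptor and ERK, only the adaptor Gab1 was called: it was at 314 ± 6.06 in R1, 109 ± 8.23 in P19 NTES7 and 37.3 ± 6.84 in P19, and was called in each comparison. This is 7.14% of the relay genes, beside 7.40% of all probe sets in R1 against P19, 2.91% in P19 NTES7 against P19 and 4.52% in P19 NTES7 against R1.

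The 17 genes that ERK signalling induces, most of which in turn damp it, had 7 calls up and 1 down in R1 against P19, 3 up and 1 down in P19 NTES7 against P19, and 0 up and 6 down in P19 NTES7 against R1, that is 47.1%, 23.5% and 35.3% of them beside 7.40%, 2.91% and 4.52% of all probe sets. Their median log2 differences were 0.80, 0.07 and -0.44, against 0.02, 0.02 and 0.01 for all genes. Spry2, a Sprouty inhibitor of the receptor signal, was 5.40-fold higher in R1 than in P19, and P19 NTES7 minus P19 was 0.07 on the log2 scale (95% interval -0.15 to 0.29). Spry4 was at 77.0 ± 20.9 in R1, 38.8 ± 11.5 in P19 and 20.2 ± 1.85 in P19 NTES7, which is the order of Fgf4, and was lower in P19 NTES7 than in R1. Fos and Egr1, immediate early genes that answer to many stimuli besides FGF, followed another order: Fos was at 95.2 ± 17.5 in P19 NTES7, 64.8 ± 25.6 in R1 and 9.04 ± 0.726 in P19, and Egr1 at 68.3 ± 9.74, 49.9 ± 7.57 and 18.9 ± 1.51, and both were higher in each stem cell line than in P19.

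**Figure D5:**
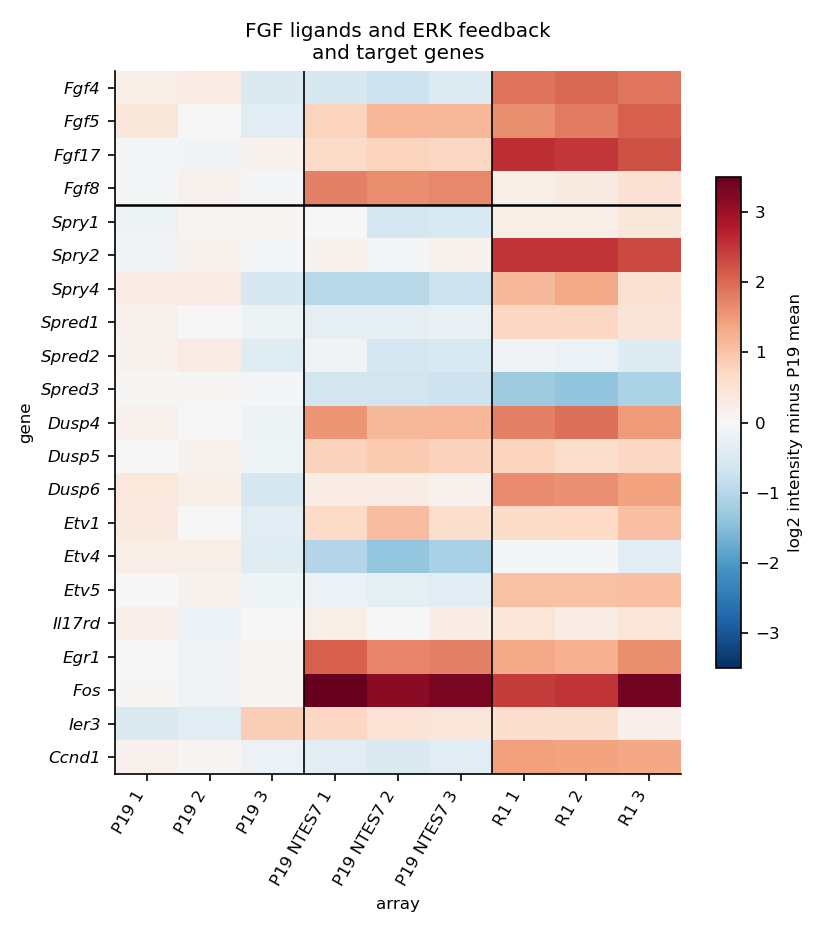
Log2 intensity minus the P19 mean on each array (colour) for 4 FGF ligands, above the black line, and the 17 ERK feedback and target genes below it. Fgf4, Spry2, Spry4, Dusp6, Etv5 and Ccnd1 are at their deepest red in R1, and Fos and Egr1 are red in both P19 NTES7 and R1.

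P19 array 3 was a low array for part of these genes. Compared with the mean of P19 arrays 1 and 2, its log2 value was 0.74 lower for Fgf4 and 0.58 lower for Fgf5, differences that 0.23% and 0.70% of all probe sets matched or passed downward. In the ERK list the same difference ran from -0.88 (Dusp6) to 1.30 (Ier3). Lowest after Dusp6 were Spry4 (-0.83), Spred2 (-0.63), Etv4 (-0.62) and Etv1 (-0.55), while Ier3 went the other way, with 99.97% of all probe sets at or below its difference. This array was the lowest of the 3 P19 arrays in 11 of the 17 ERK genes and in 3 of the 10 FGF genes, against 38.3% of all probe sets. The other FGF genes on it were within 0.22 of the mean of the other two on the log2 scale.

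The genes whose profiles over the 9 arrays came closest to each ligand were found by the root mean square (rms) difference of centred log2 values, as a description. For Fgf4 they were Epas1 (0.18), which encodes the hypoxia factor HIF2A, Grhl2 (0.22), an epithelial transcription factor, and Cobl (0.22). Fgf17 had the closest partners: Tbx3 (0.08), a T-box factor of ES cells, Pdgfa (0.12), a platelet-derived growth factor, and Mmp10 (0.13). Those of Fgf5 were Gm14403 (0.16), Sh3gl2 (0.21) and Wnt5a (0.22), a secreted Wnt ligand. Fgf8 was matched by Zbp1 (0.13), Gpat2 (0.16) and Mfge8 (0.17). Fgf15 ran with Stmn2 (0.17), which encodes a microtubule regulator of neurons, Atad2b (0.20) and Tenm4 (0.20). For Fgf7 the list was Tnfrsf10b (0.13), Pcdh7 (0.14) and Nid1 (0.14), a basement membrane protein, and for Fgf10 it was Dusp10 (0.14), Sirt4 (0.16) and Tuba8 (0.18). Fgf3 and both receptors spanned under 1 on the log2 scale between lines and were not matched.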

How the data were processed

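RNA of P19, P19 NTES7 and R1 cells was measured on 9 arrays, 3 for each line. Per the methods, the authors labelled 100 ng of total RNA and summarised probes with Robust Multichip Average (RMA). The deposited values are intensities on a linear scale and do not carry the median scaling that the methods name. No build is named for the array annotation in the sources used here. Symbols came from the platform annotation, updated through gene IDs to RefSeq genes of GRCm38.p6, and the brightest probe set stood for a gene.

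The 28853 log2 intensities of each array entered 1 fit in limma 3.58.1 (R 4.3.3), with a mean per line. Adjusted p-values are two-sided and adjusted by Benjamini-Hochberg over all probe sets. The limits were adjusted p under 0.01 and fold over 2. The methods name the same numbers for an unadjusted p from analysis of variance, a looser limit that was run as an alternative. The fit was tested on simulated data. Errors of levels are SDs and errors of log2 differences are SEs. Precision rests on 3 arrays per line, with a median SD on the log2 scale of 0.106 (P19), 0.132 (P19 NTES7) and 0.121 (R1).

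The members and lists were chosen with earlier results of these data known. Named were all 10 members, up to 4 called genes of each list with the largest difference, the 3 closest profiles of each member that spanned over 1 on the log2 scale, and genes within 500 kb between or 200 kb around neighbouring members. Genes named outside this rule (Pou5f1, Acta2, Pdgfra, Tagln, Mmp2, Fgf18, Fgfr3, Fgfr4, Dusp6, Spred2, Etv1, Etv4, Etv5, Ier3, Gm26793) were chosen after their values were seen. For 9 listed genes, T among them, no probe set with a symbol of its own was found. R1 arrays 1 and 2 were the closest pair (rms log2 difference 0.125, against 0.168 to 0.294 for other pairs of a line) and were kept as separate arrays. Promoters were cut to the 250 bases before the start.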

Additional observations from a re-analysis of the deposited data

How the results depend on the processing

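Each difference was recomputed under 20 alternatives: quantile normalization again, centring on array medians, a pseudocount of 16, a filter on dim probe sets, the second brightest probe set, the compared lines only, variance trend with robust moderation, the methods' analysis of variance, a looser limit, a replicate block, each array left out, and, chosen after the data were seen, R1 arrays 1 and 2 averaged as 1. The second brightest probe set could change no FGF gene, since each has 1 probe set. Under the 19 others, of 567 recomputed differences of the FGF genes, 545 kept their call, 14 were called only under the alternative, 8 only as reported, and 0 called differences changed sign. The differences of Fgf15 between R1 and P19 and of Fgf3 between P19 NTES7 and R1, both near 0 and not called, took either sign. With each array left out, 4 FGF genes were called every time in R1 against P19, 3 to 5 in P19 NTES7 against P19 and 5 every time in P19 NTES7 against R1, and 13 to 16, 5 to 8 and 10 to 14 other pathway genes.

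With 16 added to each value, 9 in place of 14 pathway genes were called in R1 against P19, 2 in place of 4 FGF genes and 3 in place of 6 pathway genes in P19 NTES7 against P19, and 3 in place of 5 FGF genes in P19 NTES7 against R1, where Fgf8 (0.99) and Fgf7 (-0.91) came under 2-fold. This setting damps low values by its construction. With an adjusted p under 0.05 at any fold, 8, 8 and 9 FGF genes and 39, 21 and 35 pathway genes were called, in the order of comparisons above. Array signal over background limits the dim genes most, Fgf3 in all lines, Fgf7, Fgf10 and Fgf17 in P19, and Fgf7 in P19 NTES7 as well. Fgf10 in R1 and Fgf5 in P19 were dim too, each above the array median on 2 of 3 arrays.

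The labels number the arrays 1 to 3 in each line. Same-numbered arrays did not deviate together (correlations of deviations -0.22 to 0.04, 0 of 9 over 0.1), so the numbers were not taken as pairs. With the replicate block, 4, 4 and 5 FGF genes and 14, 6 and 11 pathway genes were called, the same counts as without it.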
